A study of Mus musculus with 15 samples.

Results

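The transcripts of 10 genes that mark basophils and eosinophils were followed in whole blood of mice with oral tumors. The basophil genes were Mcpt8, Prss34, Cpa3, Fcer1a, Ms4a2 and Hdc, and the eosinophil genes were Siglecf, Ccr3, Il5ra and Prg2. They were taken by symbol from the 55416 Ensembl gene ids of the deposited count tables, and each symbol matched 1 id. RNA of 15 C57BL/6 mice was sequenced, 1 library per mouse and 5 mice per group. The labels give wild type animals with 4MOSC1 cells, a mouse oral squamous cell carcinoma line, grown in the tongue for 10 days. One group received 2 doses of αCTLA-4, an antibody against an inhibitory receptor of T cells, and an early neck dissection (ND), the surgical removal of the lymph nodes that drain the tongue. Another group received the same antibody and a late ND. The third group was labelled untreated with no surgery, and its labels carry the same transplantation text. The study's text and its figure legend disagree on whether blood of the late ND mice was drawn before or after that surgery. Therefore "late ND" and "after late ND" name the group only. The comparison of late with early ND addresses whether the timing of ND after αCTLA-4 goes with a difference in blood transcripts. If blood was drawn before the late surgery, it sets mice not yet operated on against operated mice. In the comparisons with untreated mice, αCTLA-4 and ND cannot be told apart.

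Basophils and eosinophils are rare granulocytes of blood. Basophils carry the high-affinity IgE receptor FcεRI and release histamine and granule proteases when IgE on their surface is bound by antigen. Eosinophils depend on IL-5, follow eotaxin chemokines through the receptor CCR3 and store cationic proteins such as major basic protein in their granules. Both lineages arise from precursors that use GATA transcription factors, and the granule protein genes of eosinophils are transcribed mainly before the cells leave the bone marrow.

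Gene counts summed to 5527108 to 7182346 in the early ND libraries, 7849602 to 13924361 in the late ND libraries and 5862888 to 10796099 in the untreated libraries. Hemoglobin genes took 14.9% to 29.3% of gene counts after late ND, against 38.3% to 64.1% after early ND and 31.6% to 61.7% in untreated mice. Levels are given in CPM, read counts scaled to library size with TMM factors, which set each library so that the typical gene does not change. On this scale 1 count was worth 0.0399 to 0.0904 CPM after late ND, 0.127 to 0.360 after early ND and 0.0694 to 0.401 in untreated mice. The libraries untreated 2, late 2 and late 3 had 313 to 766 CPM (by library total) of the 18S ribosomal RNA gene Rn18s-rs5, against at least 13402 in each other library. No early ND library is among these 3.

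The promoters of the members were read to show a letter pattern that most of them share. RefSeq gives a 300-base promoter window for 9 of the 10 genes, each of which was placed on GRCm39 by a single exact match near its gene. The motif searched was AGATAA on both strands, which reads TTATCT on the opposite strand and holds the core that GATA factors bind. Among the 100 bases before the start of transcription, 6 of 9 members held it, namely Cpa3, Prss34, Ms4a2, Fcer1a, Ccr3 and Il5ra. Of all 32851 windows in the table, 3.6% held it in the same 100 bases and 11.2% in the whole 300. Mcpt8, Hdc and Siglecf held no match in either length. The 100-base length was chosen after the positions were seen, and a match of letters does not show that a factor binds. The 6 windows with a match are printed from 5′ to 3′ on the strand of the gene, with the matched letters in capitals.
Ms4a2, chr19:11601084-11601183, minus strand: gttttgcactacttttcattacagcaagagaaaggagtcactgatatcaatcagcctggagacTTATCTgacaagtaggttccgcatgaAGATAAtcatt
Cpa3, chr3:20296346-20296445, minus strand: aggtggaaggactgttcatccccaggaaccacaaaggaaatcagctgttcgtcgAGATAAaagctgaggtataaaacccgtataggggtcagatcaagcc
Prss34, chr17:25517268-25517367, plus strand: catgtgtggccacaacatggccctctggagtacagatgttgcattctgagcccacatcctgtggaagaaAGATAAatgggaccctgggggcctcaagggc
Fcer1a, chr1:173054797-173054896, minus strand: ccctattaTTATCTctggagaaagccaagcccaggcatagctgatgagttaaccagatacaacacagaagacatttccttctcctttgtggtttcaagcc
Ccr3, chr9:123821908-123822007, plus strand: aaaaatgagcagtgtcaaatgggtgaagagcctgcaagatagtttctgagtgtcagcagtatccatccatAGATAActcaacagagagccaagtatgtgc
Il5ra, chr6:106725999-106726098, minus strand: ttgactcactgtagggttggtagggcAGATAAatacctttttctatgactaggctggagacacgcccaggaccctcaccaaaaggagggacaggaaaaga
In these windows Ms4a2 alone held 2 matches, one on each strand. Prss34, Ccr3, Ms4a2 and Cpa3 each had a match that ended 41 bases or fewer before the start, and those of Il5ra and Fcer1a ended 69 and 87 bases before it.

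Per kilobase of exon, Hdc stood far above the other 9 genes, at 27.7 ± 12.97 CPM per kb (SD, n = 15 libraries). Hdc encodes histidine decarboxylase, which makes histamine. Its lowest library still exceeded the highest Siglecf library, and the mean was 9.87 times that of Siglecf, the next gene in the order. Siglecf had 2.81 ± 1.20 CPM per kb (SD, n = 15), followed by Ccr3 at 1.96 ± 1.54 and Il5ra at 1.48 ± 0.622. The remaining basophil genes Ms4a2, Mcpt8, Fcer1a and Cpa3 lay between 1.14 and 0.785 CPM per kb. The order ended with Prg2 at 0.263 ± 0.329 and Prss34 at 0.213 ± 0.283 CPM per kb. Below Hdc, the intervals of mean ± SD of each pair of neighbours in this order overlapped. In raw counts the 10 genes ran from 27 counts for Prg2 and 33 for Prss34 over all 15 libraries to 30803 for Hdc.

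**Figure D1:**
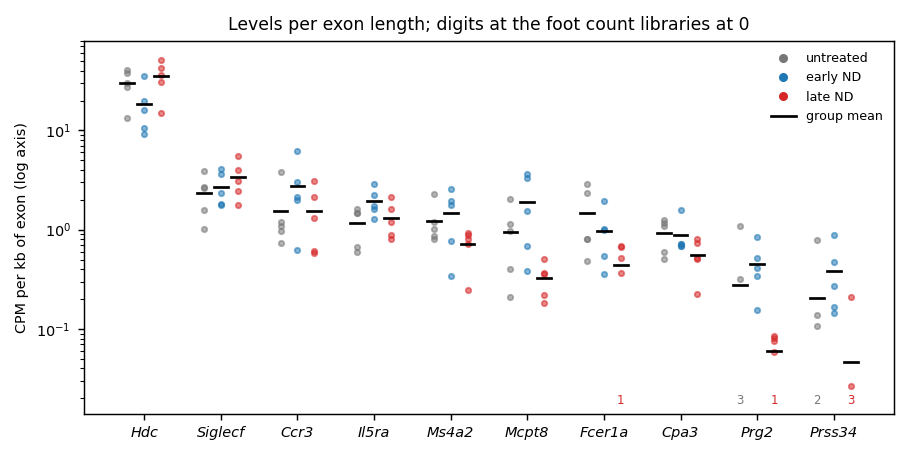
Level of each gene in CPM per kb of exon on a log axis, with 1 point per library above 0, colored by group, and a bar at the group mean; digits at the foot count the libraries at 0. Hdc (27.7 CPM per kb over 15 libraries) lies apart from the other 9 genes, and Prss34 and Prg2 hold most of the libraries at 0.

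The granule proteases of basophils had group means below 2 CPM, the lowest of them after late ND, although with library totals the fitted difference of Cpa3 between late and early ND turned to higher. Mcpt8 (ENSMUSG00000022157, chr14:56319623-56322730 of GRCm39) encodes a serine protease of basophil granules. It had 0.401, 0.208, 1.15, 2.02 and 0.964 CPM in untreated mice 1 to 5. After early ND the values were 0.381, 3.30, 0.682, 3.60 and 1.52 CPM. After late ND they were 0.181, 0.359, 0.218, 0.368 and 0.502 CPM. Thus 4 of the 5 late ND mice lay below every early ND mouse, the exception was late 5, and 1 late ND mouse lay below every untreated mouse. The group means were 0.949 ± 0.715 in untreated mice, 1.90 ± 1.48 after early ND and 0.326 ± 0.129 CPM after late ND (SD, n = 5 each). Behind these values stood 1 to 20 counts per library, and an exact Poisson 95% interval for the 5 counts of early 3 reached from 1.62 to 11.7 counts. Such intervals cover counting error only, since reads without molecular identifiers are not independent molecules. In bulk blood, fewer basophils and less RNA per basophil cannot be told apart.

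Prss34 (ENSMUSG00000056399, chr17:25517368-25519142) encodes another serine protease of basophils and mast cells. Its raw counts were 0, 3, 0, 7 and 1 in untreated mice, 2, 8, 3, 2 and 1 after early ND and 0, 1, 0, 0 and 5 after late ND. In the 3 late ND libraries at 0, a floor set at 3 counts is 0.131 to 0.271 CPM. In the 2 untreated libraries at 0 it is 0.862 and 1.20 CPM. The exact Poisson 95% interval for 0 counts reaches higher, to 3.69 counts. As CPM, 4 of 5 late ND mice lay below every early ND mouse, and the untreated mice spanned both groups. Cpa3 (ENSMUSG00000001865, chr3:20269774-20296362) encodes the carboxypeptidase that basophils and mast cells pack with their proteases. It had 2, 25, 7, 11 and 6 counts in untreated mice, 9, 7, 8, 7 and 5 after early ND and 4, 32, 19, 16 and 13 after late ND. Its mean was 1.47 ± 0.550 in untreated mice, 1.40 ± 0.628 after early ND and 0.892 ± 0.361 CPM after late ND (SD, n = 5). As CPM, 3 late ND mice had less Cpa3 than every early ND mouse. Of its exon bases, 15.4% lie opposite the gene Gm31320, and a strand setting of the counting is not given in the sources used here, so part of its counts is uncertain.

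The genes followed include those of the IgE-binding chain and the signal-amplifying chain of FcεRI. Fcer1a (ENSMUSG00000005339, chr1:173048851-173054781) encodes the chain that binds IgE. It had 2, 7, 10, 14 and 5 counts in untreated mice, 8, 6, 4, 1 and 9 after early ND and 4, 17, 12, 9 and 0 after late ND. On the CPM scale the means were 1.46 ± 1.07 untreated, 0.974 ± 0.619 early ND and 0.445 ± 0.280 late ND (SD, n = 5), and the groups overlapped. Ms4a2 (ENSMUSG00000024680, chr19:11592887-11601083) encodes the chain that amplifies the signal of the receptor. Its CPM were 2.41, 3.33, 2.87, 6.41 and 2.25 in untreated mice. After early ND they were 2.16, 4.96, 0.954, 7.21 and 5.44 CPM, and after late ND 2.26, 2.51, 2.01, 2.58 and 0.691 CPM. The late ND mice were close together apart from late 5, and the early ND mice spread from below 4 of them to above all. Means of Ms4a2 were 3.45 ± 1.704 untreated, 4.14 ± 2.54 early ND and 2.01 ± 0.771 CPM late ND (SD, n = 5).

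Hdc (ENSMUSG00000027360, chr2:126435558-126461318) went the other way. It had 189, 262, 91.9, 277 and 205 CPM in untreated mice. Early ND mice had 111, 63.3, 243, 73.1 and 137 CPM. Late ND mice had 289, 104, 213, 351 and 251 CPM. Of the late ND mice, 3 lay above every early ND mouse, while late 2 and late 3 lay within the early ND range and early 1, early 3 and early 5 within the late ND range. The group means were 205 ± 73.4 untreated, 126 ± 72.2 early ND and 241 ± 92.1 CPM late ND (SD, n = 5).

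Of the eosinophil receptors, Siglecf (ENSMUSG00000039013, chr7:43000765-43008955) encodes an inhibitory lectin of the eosinophil surface. It had 4.42, 7.28, 7.47, 2.87 and 10.8 CPM in untreated mice, 5.08, 4.96, 11.3, 10.1 and 6.53 after early ND and 4.97, 8.65, 15.3, 11.2 and 6.78 after late ND. The 3 groups overlapped, with means of 6.56 ± 3.05, 7.59 ± 2.94 and 9.37 ± 4.02 CPM (SD, n = 5), and late 3 was highest. Ccr3 (ENSMUSG00000035448, chr9:123822009-123831726), the receptor for eotaxins, had 2.41, 3.19, 12.4, 3.88 and 3.53 CPM in untreated mice. It had 6.98, 6.44, 2.04, 20.2 and 9.80 CPM after early ND and 1.99, 6.98, 10.1, 1.91 and 4.33 after late ND. The highest values came from single mice, early 4 and untreated 3, and 4 of the 5 early ND mice exceeded 4 of the 5 untreated mice. In raw counts early 4 had 56 beside 55 in early 1, and untreated 3 had 43 beside 46 in untreated 2. Late 2 and late 3, both poor in 18S sequence, were the 2 highest of their group.

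Il5ra (ENSMUSG00000005364, chr6:106686622-106725998) encodes the chain that binds IL-5. Its CPM were 6.83, 6.24, 6.32, 2.53 and 2.89 in untreated mice, 9.64, 6.94, 7.36, 12.2 and 5.44 after early ND and 5.06, 9.01, 6.89, 3.75 and 3.45 after late ND. Of the early ND mice, 4 of 5 had more Il5ra than every untreated mouse, and 3 late ND mice had less than every early ND mouse. Means were 4.96 ± 2.07 untreated, 8.33 ± 2.66 early ND and 5.64 ± 2.32 CPM late ND (SD, n = 5).

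The granule genes of eosinophils were close to the limit of detection. Prg2 (ENSMUSG00000027073, chr2:84789208-84813977) encodes major basic protein and had 0, 0, 4, 2 and 0 counts in untreated mice, 7, 1, 4, 1 and 2 after early ND and 1, 2, 2, 0 and 1 after late ND. As CPM, each late ND mouse lay below each early ND mouse, at 0 to 0.0904 against 0.165 to 0.888 CPM. It was the 1 member of 10 whose groups did not overlap in this comparison. Of all genes with at least 1 count in these 10 libraries, 1.55% lay lower after late ND in this way and 1.63% higher. The 2 early ND libraries with a single count of Prg2 stood at 0.165 and 0.360 CPM, above the late ND libraries with 2 counts at 0.0798 and 0.0872 CPM. On this scale 1 count is worth less CPM where a library is deeper and where its TMM factor is larger. The TMM factors were 0.900 and 0.502 in early 2 and early 4, against 1.92 and 1.65 in late 2 and late 3. The order of these libraries thus rests on the TMM factors as well as on depth. Of the other eosinophil granule genes, Epx (eosinophil peroxidase) had 5 counts over 15 libraries, Ear6 had 4, Ear1 had 37, and Prg3 had 0 in every library. Ear2, an eosinophil-associated ribonuclease, was the exception at 1845 counts and a mean of 13.6 CPM. Which cells its counts came from was not tested.

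**Figure D2:**
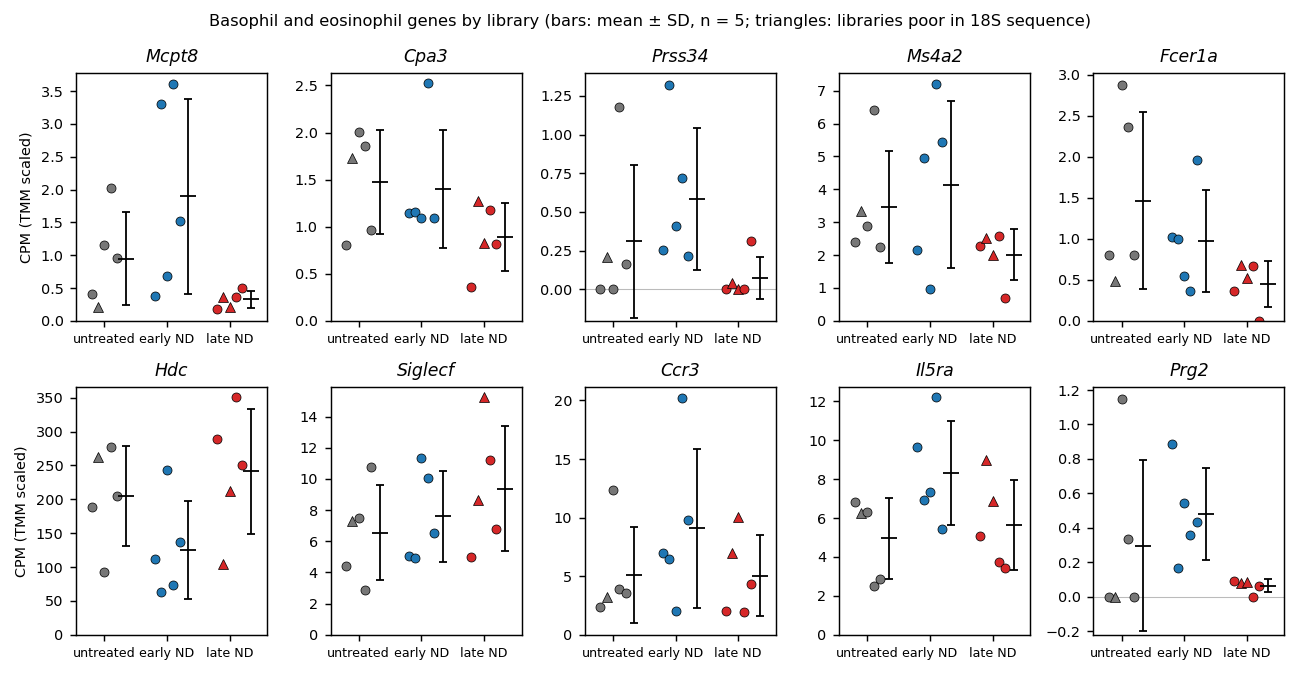
CPM of each of the 10 genes by library (vertical axis, TMM scaled, its own range per panel) in untreated, early ND and late ND mice, with mean ± SD beside the points (n = 5); triangles mark the 3 libraries poor in 18S sequence. Mcpt8 and Prss34 are low in 4 of 5 late ND mice, Hdc has its highest mean there (241 CPM), and the eosinophil receptors overlap between the groups.

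None of the 10 genes passed the test between groups on filtered counts. Counts were fitted with the quasi-likelihood method of edgeR, and p-values were adjusted by Benjamini and Hochberg over the genes tested, with a threshold of 0.05. After a filter on low counts, 6 members entered the 2 comparisons with late ND (Cpa3, Ms4a2, Hdc, Siglecf, Ccr3 and Il5ra), and 5 (without Cpa3) entered that of early ND with untreated mice. Between late and early ND, 0 of 6 were called, where 4.98% of 13315 genes were, and 1 of 6, Hdc, had an unadjusted p under 0.05, where 23.8% of genes did. Between late ND and untreated mice 0 of 6 were called against 3% of 13547 genes, and 0 had an unadjusted p under 0.05 against 17%. Between early ND and untreated mice 0 of 5 were called against 0% of 12151 genes, and 1, Il5ra, had an unadjusted p under 0.05 against 4.44%. The Wald test of DESeq2 on the same filtered counts also called 0 members in each comparison, and it gave no adjusted p for Cpa3 between late and early ND.

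Against early ND, Hdc was higher after late ND by 0.95 on the log2 scale (SE 0.38, edgeR adjusted p = 0.148). Ms4a2 was lower, with a log2 fold change of -0.92 (SE 0.48, edgeR adjusted p = 0.269). The others had log2 fold changes of -0.67 (Ccr3), -0.48 (Cpa3 and Il5ra) and 0.36 (Siglecf). Thus 4 of the 6 were below 0 and their median was -0.48, beside a median of 0.014 over all genes tested, of which 51.8% were above 0. With library totals in place of TMM the median of all genes moved to 0.86, and Cpa3 (0.40), Ms4a2 (0.035), Ccr3 (0.38) and Il5ra (0.41) turned above 0 yet stayed below that median. Hdc at 1.67 and Siglecf at 1.23 lay above it and were called under that scaling, as were 68% of all genes. Over the 10 filtered fits that each omit 1 mouse, the log2 fold change of Hdc under TMM was 0.77 to 1.35, and Hdc was called only without early 3, the early ND mouse richest in Hdc (edgeR adjusted p = 0.0239), a fit in which 11.8% of genes were called.

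The values of the eosinophil receptors changed when the late ND libraries with little 18S sequence were set aside. When late 2 and late 3 were left out, the log2 fold change of Il5ra between late and early ND was -1.01 (SE 0.27, edgeR adjusted p = 0.0734), and that of Ccr3 was -1.61 (SE 0.59, edgeR adjusted p = 0.137). Hdc was then at 1.24 (edgeR adjusted p = 0.0895) and Siglecf at 0.034. No member was called in this filtered subset, in which 4 of 13440 genes were. Without the filter, Hdc at 1.28, Ccr3 at -1.56 and Il5ra at -0.96 were called in it (edgeR adjusted p = 0.00536, 0.0233 and 0.0285), along with 4.62% of 27410 genes. The part of the 18S content in these values was not tested.

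For the 4 genes that the filter removed, a fit without the filter gives the only test, over 28650 genes with at least 1 count. There Mcpt8 was called lower in late than in early ND mice, with a log2 fold change of -2.29 (SE 0.59, edgeR adjusted p = 0.0270), and it was 1 of 10 members called, where 4.47% of genes were called and 1.38% were called lower. Without early 2 the adjusted p of Mcpt8 was 0.135, without early 4 it was 0.0970, without late 3 it was 0.0664 and without late 4 it was 0.0606. With library totals its log2 fold change was -1.39 (edgeR adjusted p = 0.0798), and with the unfiltered DESeq2 Wald test it was -2.44 (DESeq2 adjusted p = 0.00324). Prg2 and Prss34 were also lower but not called, at log2 fold changes of -2.62 (edgeR adjusted p = 0.0640) and -2.76 (edgeR adjusted p = 0.114), and Fcer1a was at -0.99 (edgeR adjusted p = 0.487). Without late 5, the late ND library that held 5 of the group's 6 counts of Prss34, that gene was called (edgeR adjusted p = 0.0148). Fitted fold changes of genes with so few counts depend on the prior count of the fit.

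Against untreated mice, Ms4a2 was at -0.80 and Cpa3 at -0.72 after late ND on the log2 scale (edgeR adjusted p = 0.314 and 0.353), and Siglecf was at 0.50 (edgeR adjusted p = 0.524). Hdc, Il5ra and Ccr3 lay between 0.10 and 0.25. Ccr3 and Il5ra turned to -0.99 and -0.12 when the libraries poor in 18S sequence were left out. With library totals, where the median of all genes was 0.91, Cpa3 and Ms4a2 turned to 0.15 and 0.065, and Hdc, Siglecf, Ccr3 and Il5ra were called (0.98 to 1.35) along with 55.9% of genes. After early ND, the log2 fold changes against untreated mice were 0.81 for Ccr3, 0.75 for Il5ra (edgeR adjusted p = 0.938), -0.71 for Hdc, 0.16 for Siglecf and 0.13 for Ms4a2. The 3 comparisons share their groups in pairs, so a high value in early ND mice enters 2 of them.

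**Figure D3:**
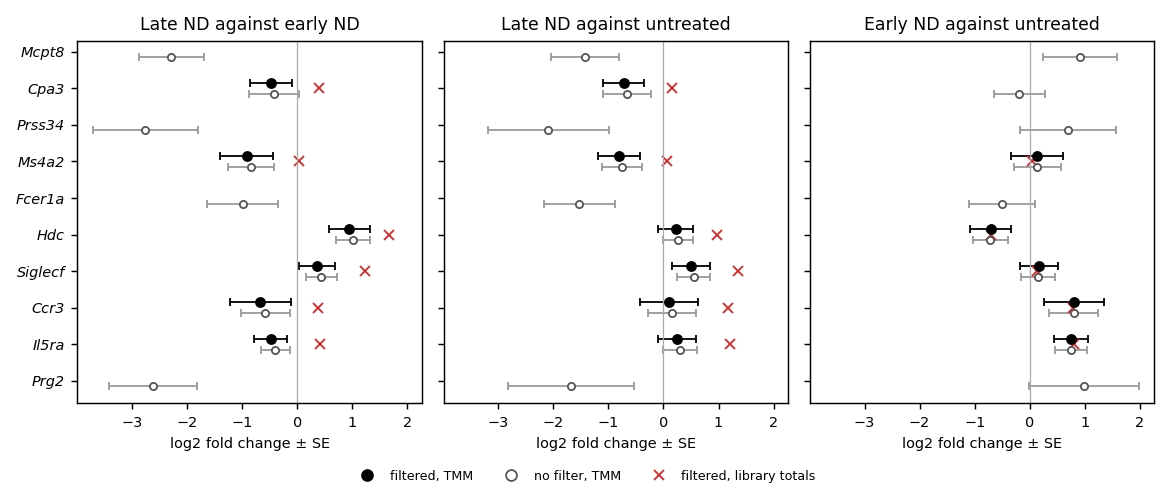
Log2 fold changes of the 10 genes in the 3 comparisons (horizontal axis; bars are the SE), fitted on filtered counts (filled circles), on unfiltered counts (open circles) and on filtered counts with library totals (crosses). Mcpt8, Prss34, Fcer1a and Prg2 have open circles only, and library totals shift every gene to the right in the comparisons with late ND.

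Among the basophil genes, Prss34 and Ms4a2 tended to be high in the mice rich in Mcpt8. The 3 highest libraries of Mcpt8, early 2, early 4 and untreated 4, were also the 3 highest of Prss34. Over 15 libraries, log2 CPM of Prss34 and of Mcpt8 had r = 0.753 (rho = 0.662, permutation p = 0.00156, adjusted p = 0.0125 over 8 relations). For Ms4a2 and Mcpt8, r was 0.635 (rho = 0.514, permutation p = 0.0104, adjusted p = 0.0416). These p-values are those of r. By rank, the permutation adjusted p was 0.0732 for Prss34 and 0.135 for Ms4a2, neither of them under the threshold. Cpa3 (r = 0.567, permutation adjusted p = 0.0516) and Fcer1a (r = 0.378, permutation adjusted p = 0.265) did not pass the threshold. Early 4, the library highest in Mcpt8, had 1 count of Fcer1a. Without early 2 and early 4, the libraries farthest from the median of Mcpt8, r was 0.578 for Prss34 and 0.440 for Ms4a2. With the mean of each group subtracted, r was 0.601 and 0.540, and 0 of the 8 relations passed after adjustment. With library totals r of Prss34 stayed at 0.760, and that of Ms4a2 was 0.358 (permutation adjusted p = 0.305).

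Outside the 10 genes, Ms4a2 tended to be high where Cd200r3, an activating receptor of basophils and mast cells, was high (r = 0.729, rho = 0.800). It also went with Cyp11a1, a steroid-making enzyme found in basophils (r = 0.839, rho = 0.696). With group means subtracted r was 0.785 and 0.800, and without the 2 libraries farthest from the median it was 0.803 and 0.763. Both genes are among 20 further basophil genes and were chosen after the values were seen, and r of the others with Ms4a2 is not given. These relations describe the libraries and are given with no test. The 5 genes closest to Ms4a2 of 11901 ranked were Ifi47, Primpol, Esf1, Psme2 and Upf3a (r from 0.873 to 0.891). Each was closer to it than Cd200r3 or Cyp11a1, and none is in a list of basophil genes used here. The 5 genes closest to Mcpt8 of 11902 ranked were Kpna1, Eif3j1, Gm15471, Ctsf and Ube2e1 (r from 0.795 to 0.828), and Ms4a2 was at rank 225. None of these 5 is in a list of basophil genes used here.

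Hdc had negative correlations with the other basophil genes set beside it. Its r with Mcpt8 was -0.599 (rho = -0.532, permutation p = 0.0192, adjusted p = 0.0511) and -0.217 without early 2 and early 4. By r, that relation passed when the libraries poor in 18S sequence were set aside (r = -0.660, permutation adjusted p = 0.0435). It also passed by r with hemoglobin and 18S genes removed (r = -0.604, permutation adjusted p = 0.0482). By rank it did not pass, with a permutation adjusted p of 0.135 in the main setting and 0.0869 and 0.115 in these alternatives. With Ms4a2 and Cpa3, r of Hdc was -0.44 and -0.43 over the same 15 libraries, given with no test. Its levels followed the neutrophil marker list, the mean log2 CPM of 13 genes such as S100a8 and S100a9, with r = 0.966 over 15 libraries (rho = 0.929, permutation p = 1.0e-05, the smallest that the resamples can give, adjusted p = 0.00036 over 36 relations). The value was 0.951 with group means subtracted, 0.943 without the 2 libraries farthest from the median, 0.964 without the libraries poor in 18S sequence and 0.985 with library totals. The 5 genes closest to Hdc of 11901 were Cpd, Cd14, Slc16a3, Pygl and Lmnb1, with r from 0.969 to 0.977. Hdc is known to be transcribed in neutrophils and other myeloid cells as well as in basophils and mast cells. The summed CPM of the neutrophil list was 4757 to 12647 in untreated mice, 2582 to 8082 after early ND and 6133 to 16498 after late ND, and its part in the level of Hdc was not tested.

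**Figure D4:**
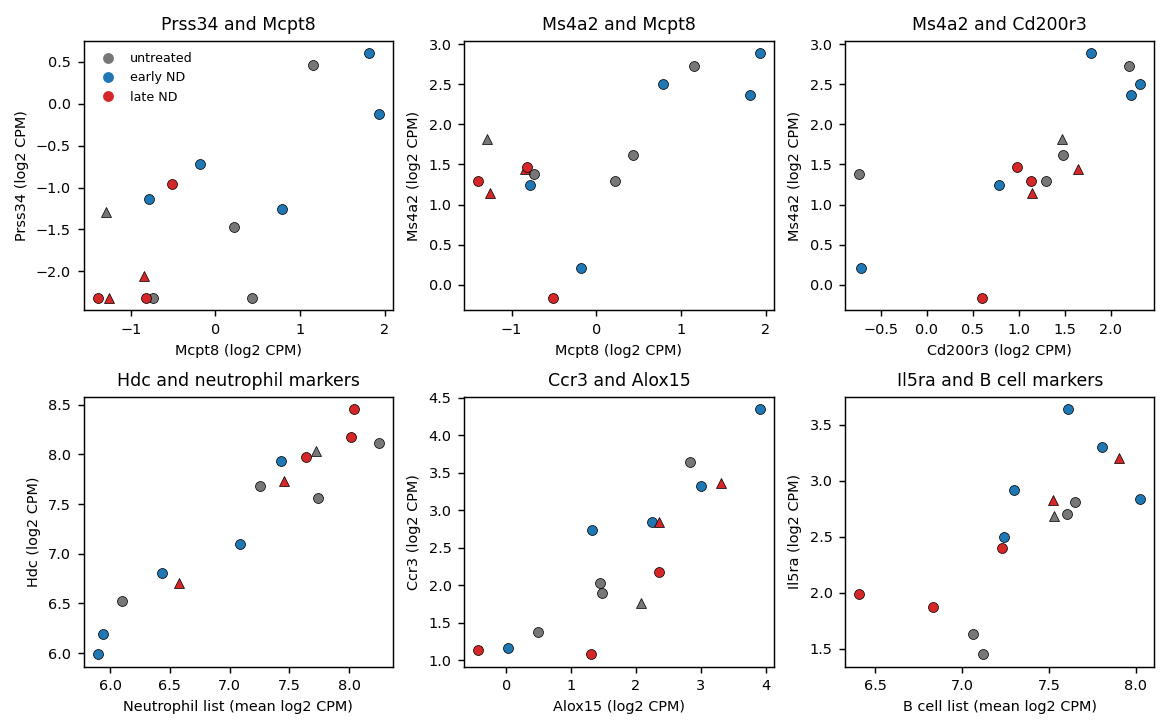
Log2 CPM of a member (vertical axes) against another gene or the mean log2 CPM of a marker list (horizontal axes), 1 point per library; triangles are the libraries poor in 18S sequence. Hdc rises along the neutrophil list (r = 0.966) and Ccr3 along Alox15 (r = 0.885), while Prss34 and Ms4a2 are highest in a few mice rich in Mcpt8.

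None of the 3 relations run with Siglecf passed on the TMM scale. Its r was 0.175 for Ccr3, 0.221 for Il5ra and -0.156 for Prg2 (permutation adjusted p = 0.577, 0.569 and 0.577). With library totals, Il5ra and Siglecf reached r = 0.647 (permutation adjusted p = 0.0370, and 0.0833 by rank). Ccr3 and Il5ra had r = 0.499 over 15 libraries and 0.395 with group means subtracted, given with no test. Ccr3 was highest where Alox15 was high, a lipoxygenase abundant in eosinophils, and Alox15 was the gene closest to Ccr3 of 11901 ranked (r = 0.885, rho = 0.911), a relation found by that ranking and given with no test. For Alox15, r was 0.330 with Siglecf and 0.314 with Il5ra. The genes closest to Siglecf were 5430425K12Rik, Ergic1, Phf10, Elp6 and Zcchc8 (r from 0.798 to 0.897), none of which is in a list of eosinophil genes used here. Il5ra went with the B cell list (r = 0.740, rho = 0.821, permutation p = 0.00168, adjusted p = 0.0151). That r was 0.709 when the libraries poor in 18S sequence were left out (permutation adjusted p = 0.0889). Il5ra is known to be present on a subset of B cells, and their part in its level was not tested. It had r = -0.666 with the neutrophil list (permutation adjusted p = 0.0536), and Hdc had r = -0.756 with the B cell list (permutation adjusted p = 0.0151). With library totals these r were 0.175 and 0.382. Ccr3 had r = -0.761 with the neutrophil list (permutation adjusted p = 0.0151), which was -0.182 with library totals.

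The receptors for IL-3, IL-5 and GM-CSF share the signaling chain encoded by Csf2rb. In this pathway 3 measured genes were called higher in late ND than in early ND mice in the fit of all their libraries. Of 14 listed genes, 11 were tested between late and early ND, and 3 were called, all higher, beside 2.5% of all genes called higher. They were Csf2rb with a log2 fold change of 1.08 (edgeR adjusted p = 0.0392), the GM-CSF receptor chain Csf2ra with 1.00 (edgeR adjusted p = 0.0225) and the IL-3 receptor chain Il3ra with 0.76 (edgeR adjusted p = 0.0476). Csf2rb and Csf2ra are used by neutrophils and monocytes too, of whose markers 2 of 13 and 2 of 8 were called higher, and the part of these cells was not tested. The ligands of the pathway were nearly unseen, with 5 counts of Il5, 10 of Csf2 and 0 of Il3 in all 15 libraries. The median log2 fold change of the 11 genes was 0.41. Without the libraries poor in 18S sequence, 4 of 13440 genes were called on filtered counts, 4 higher and 0 lower. List genes were read from the main fit only, so whether these 3 calls hold in that subset was not tested.

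Among 20 further basophil genes, 17 were tested between late and early ND and 1, Il3ra, was called, where 4.98% of all genes were. Their median log2 fold change was -0.19. Gata2, a transcription factor that basophils need, had 11.7 ± 2.97 CPM untreated, a log2 fold change of -0.34 between late and early ND (edgeR adjusted p = 0.362) and -0.28 between late ND and untreated mice (edgeR adjusted p = 0.602). Between late ND and untreated mice, where 3% of all genes were called, the 1 of 17 called was the chemokine Ccl9, at 0.75 (edgeR adjusted p = 0.0423). Among 20 further eosinophil genes, 11 were tested and 2 were called higher after late than after early ND, beside 2.5% of all genes called higher. These were Csf2ra and Trib1 (0.81, edgeR adjusted p = 0.0392), the latter a regulator of granulocyte differentiation. The median of the 11 tested genes was -0.029. Between late ND and untreated mice Adgre1, which encodes F4/80 of macrophages and eosinophils, was the 1 of 11 called, at 0.89 (edgeR adjusted p = 0.0250). On filtered counts, 0 genes of any kind were called in that comparison without untreated 3, late 1, late 4 or late 5. The same held without the libraries poor in 18S sequence, so the calls of Ccl9 and Adgre1 were not kept in these fits.

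Of 15 genes of IgE receptor signaling, 15 were tested and 0 were called between late and early ND, 9 of them with an unadjusted p under 0.05 in edgeR, as had 23.8% of all genes, and their median was 0.31. The most abundant were the kinases Syk, with a log2 fold change of 0.35 (edgeR adjusted p = 0.153), and Lyn, with 0.31 (edgeR adjusted p = 0.345). Fcer1g, the signaling chain that FcεRI shares with other Fc receptors, was at 0.73 (edgeR adjusted p = 0.0832), opposite in sign to Ms4a2. Of 12 genes of histamine and lipid mediators, 8 were tested and 0 called, 4 with an unadjusted p under 0.05 beside the same 23.8%, and their median was 0.60. Its most abundant members were Alox5ap and Alox5, which start leukotriene synthesis, at 0.67 and 0.91 (edgeR adjusted p = 0.150 and 0.0648). Of 12 type 2 cytokines and alarmins, 1 was tested, and Il9, Il31, Il25, Il3 and Areg were at 0 in every library. The most abundant was Il4 at 1.45 CPM over 15 libraries, followed by Il33 at 1.14 CPM. In the comparison of early ND with untreated mice no gene of these 6 lists was called by edgeR, where 0% of all 12151 genes were. There 0 to 2 genes per list had an unadjusted p under 0.05 in edgeR, beside 4.44% of all genes. Of the type 2 cytokines and alarmins, 0 were tested in that comparison.

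**Figure D5:**
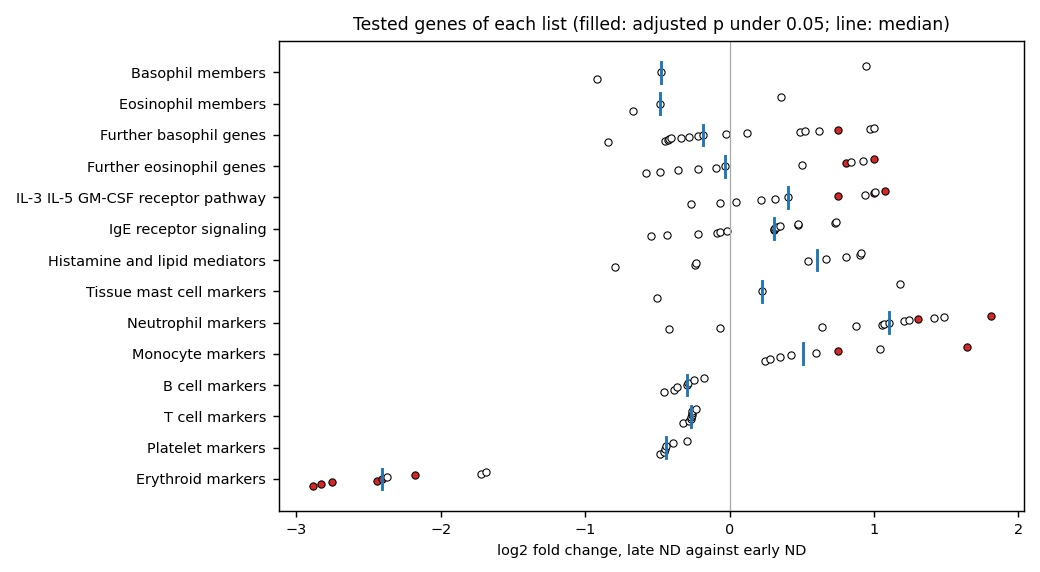
Log2 fold change between late and early ND (horizontal axis) of each tested gene in 14 lists, with filled points for an edgeR adjusted p under 0.05 and a line at the list's median. The 3 tested basophil and 3 tested eosinophil members are open points on both sides of 0, and the medians range from -2.41 for the erythroid list to 1.11 for the neutrophil list.

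Markers of other cells that could share the members' transcripts were read in the same libraries. Tissue mast cells express Cpa3, Ms4a2, Fcer1a and Hdc. Of the 10 mast cell markers, Kit had 658 counts over 15 libraries, Mitf 482 and Cma1 196, the last beside 171 for Cpa3, 108 for Fcer1a and 100 for Mcpt8. Mcpt4 had 17 counts, Tpsb2 had 31, Tpsab1 and Mrgprb2 had 1 each, and Mcpt1, Mcpt2 and Mrgprb1 had 2 each. The summed level of the list was 7.47 to 15.7 CPM in untreated mice, 3.96 to 12.3 after early ND and 4.79 to 15.3 after late ND, and 0 of 3 tested genes were called between late and early ND. Beside the lower means of the basophil granule genes after late ND, erythroid markers had 9 of 9 tested genes below 0, 6 of them called, where 4.98% of all genes were (median -2.41), led in level by Hbb-bs and Hba-a1. Without the libraries poor in 18S sequence, 0 genes were called lower on filtered counts, so these 6 calls were not kept there. Neutrophil markers, led by S100a9 and S100a8, had 11 of 13 genes above 0 and 2 called (Mmp8 and Cd177, median 1.11). Monocyte markers, led by F13a1 and Ccr2, had 8 of 8 above 0 and 2 called (Csf1r and Fn1, median 0.51). B cell markers, T cell markers and platelet markers had 0 of 7, 0 of 8 and 0 of 6 genes called, with medians of -0.30, -0.26 and -0.44. The most abundant T cell markers were Lck and Cd8a and the most abundant platelet markers Ppbp and Pf4, and Gp1bb was at 0 in all libraries. Skin and sebaceous markers, led by Scd3 and Elovl3, had 0 of 5 called and a median of 0.27, with Awat1 at 0. The part of these cells in the members' values was not tested.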

How the data were processed

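Peripheral blood from cheek bleeds of 15 mice was sequenced as paired ends of total RNA. The authors aligned reads with STAR 2.7.9 to GRCm39, sorted them with SAMtools 1.7 and counted them per gene with HTSeq 0.13.5, per the labels. They deposited raw counts per Ensembl gene for each mouse, with no normalization. The submitters' notes also name mm10, and the annotation release and strand setting are not given in the sources used here. Of 55416 ids, 54749 matched GENCODE vM39, which gave symbols, GRCm39 coordinates and exon lengths.

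Counts were tested with edgeR 4.0.16 in R 4.3.3 (filterByExpr, TMM, quasi-likelihood fit, only the 2 groups compared, no covariate, Benjamini-Hochberg over all genes tested, threshold 0.05). DESeq2 1.42.0 was an alternative. The fit was tested on simulated counts. Alternatives changed the scaling, the filter, the test, the libraries, a replicate block and the genes entering the scaling. CPM used TMM factors over 15 libraries, and log2 CPM a prior count of 2. Relations used permutation tests (100000 resamples, two-sided). Their printed p-values are those of r unless given by rank. The genes closest to a member were ranked among those with a mean of at least 20 counts. Named genes were the 10 members, called genes of each further list (where none was called, the 2 most abundant), the 5 closest to Mcpt8 and to Siglecf, and in marker lists of other cells those at 0 and the 2 most abundant. An item that this rule would name is not reported here. Others were chosen after their values were seen. Among them are the genes closest to Hdc, Ccr3 and Ms4a2. The rest include Cd200r3, Cyp11a1, Alox15, Gata2, Fcer1g and the other granule and mast cell genes. Members and lists were chosen with earlier results of these data known. Of 168 list symbols 166 were found (not Ahsp and Lor). The highest correlation between 2 libraries was 0.981, so none was treated as a duplicate. Labels name 1 mouse per library. The promoter windows are RefSeq's for GRCm38.p6, placed on GRCm39 by exact match.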

Additional observations from a re-analysis of the deposited data

Results flagged for a closer look

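Within groups of 5, each member was checked for a library far from the rest by Dixon's criterion at 95%, and 5 of 30 groups were marked, where chance marks about 1 in 20. Cpa3 in early 4 was at 2.52 CPM, with the other early ND mice at 1.09 to 1.16. Its raw count was 7, within the 5 to 9 of those mice, and 1 count was worth 0.360 CPM in early 4. Ms4a2 in untreated 4 was at 6.41 CPM, with the others at 2.25 to 3.33. There it had 38 counts, within the 6 to 48 of the others. Prss34 in untreated 4 was at 1.18 CPM, with the others at 0 to 0.208. Prss34 in late 5 was at 0.314 CPM, with the others at 0 to 0.0399. Ccr3 in untreated 3 was at 12.4 CPM, with the others at 2.41 to 3.88. There it had 43 counts, within the 6 to 46 of the others. Untreated 4 was thus marked for 2 basophil genes, and it also had the highest Mcpt8 of its group.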

How the results depend on the processing

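The number of members called between late and early ND, 0 on filtered counts, is given with the share of all genes called in the same fit. It was 2 with library totals (Hdc and Siglecf, 68%), 1 without the filter (Mcpt8, 4.47%), 1 without the filter but with scaling from filtered genes (Mcpt8, 3.02%), 2 without the filter with library totals (Hdc and Siglecf, 29%), 1 without the filter with DESeq2 (Mcpt8, 5.06%), 2 without the filter with the replicate block (Mcpt8 and Hdc, 6.64%) and 3 without the filter and the libraries poor in 18S sequence (Hdc, Ccr3 and Il5ra, 4.62%). With 1 mouse left out it was 0 to 1 on filtered counts (1.09% to 11.8%) and 0 to 2 without the filter (1.82% to 7.52%). Against untreated mice it was 4 after late ND with library totals, with and without the filter (Hdc, Siglecf, Ccr3 and Il5ra, 55.9% and 16.6%). It stayed at 0 with size factors of DESeq2, without hemoglobin and 18S genes, with all 15 libraries in 1 fit and, on filtered counts, with DESeq2 and with the replicate block, in the 3 comparisons. The labels do not say that a replicate number marks anything shared. Deviations of same-numbered mice correlated at -0.181 to 0.459 between late and early ND, at 0.0289 to 0.579 between late ND and untreated mice (4 of 5 over 0.1) and at -0.241 to 0.0798 between early ND and untreated mice, so not every pair was over 0.1 and the numbers were not taken as pairs. The block changed no call on filtered counts. By r, the correlation with Mcpt8 or Siglecf passed for 2 of 8 genes, for 0 with group means subtracted and for 4 without the libraries poor in 18S sequence. By rank, the smallest permutation adjusted p was 0.0732 over 15 libraries and 0.0746 without the libraries poor in 18S sequence.

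Directions turned for these log2 fold changes. Between late and early ND with library totals, Cpa3 was 0.40, Ms4a2 0.035, Ccr3 0.38 and Il5ra 0.41, and without the filter 0.39, 0.032, 0.38 and 0.40. Between late ND and untreated mice with library totals, Cpa3 was 0.15 and Ms4a2 0.065, and without the filter 0.16 and 0.064. There, without the libraries poor in 18S sequence, Ccr3 was -0.99 and Il5ra -0.12, and without the filter -0.93 and -0.060. With 1 mouse left out, Ccr3 ranged from -0.32 to 0.64 and Il5ra from -0.029 to 0.40 in that comparison. Without the filter, Ccr3 was -0.019, -0.031 and -0.25 without untreated 1, late 2 and late 3. Against untreated mice after early ND, with 1 mouse left out, Ms4a2 ranged from -0.11 to 0.48 and Siglecf from -0.068 to 0.41. Without the filter, Ms4a2 was -0.019, -0.10 and -0.0044 without untreated 5, early 4 and early 5, and Siglecf was -0.050 and -0.076 without untreated 4 and early 3. The cause was not tested, other than that library totals moved the median of all genes. Over the alternatives, 225 log2 fold changes between late and early ND, 232 between late ND and untreated mice and 230 between early ND and untreated mice kept their direction and their side of the threshold, while 8, 16 and 10 turned. Between late and early ND, 12 others kept their direction but came to pass the threshold, and 6 no longer passed it. Between late ND and untreated mice 8 came to pass it. Depth limits Mcpt8, Prss34, Fcer1a and Prg2, each with at most 20 counts in a library.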
